A study of Rattus norvegicus with 8 samples.

Results

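The nuclear-encoded subunits of the respiratory chain were examined in the striatum of 8 rats. Members were chosen by gene symbol alone, as rows starting with Ndufa, Ndufb, Ndufc, Ndufs, Ndufv, Uqcr, Atp5 or Cox4 to Cox8, or named Sdha, Sdhb, Sdhc, Sdhd or Cyc1, without the assembly factors named Ndufaf. This gave 82 of the 17337 genes in the count table. Of these, 34 belong to complex I, 4 to complex II, 9 to complex III, 17 to complex IV and 15 to complex V, with Ndufa4 and Ndufa4l2 placed in complex IV. The other 3 (Atp5s, Atp5sl and the pseudogene Cox6c-ps1) matched by symbol without being subunits. The rats were wild-type male Sprague-Dawley rats with a jugular catheter, trained to press a lever for food and then given 2 h sessions for 16 days. In these sessions 4 rats self-administered methamphetamine (METH) at 0.05 mg/kg per infusion and 4 self-administered saline. The rats were chosen from larger groups because their lever pressing was stable over the last 3 days, and all were anesthetized with ketamine and xylazine before the brain was taken. Their age is not given in the sources used here. Polyadenylated RNA was sequenced from whole striatal tissue, so that fewer cells of one type and less RNA per cell cannot be told apart.

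The respiratory chain sits in the inner mitochondrial membrane and turns the energy of NADH and succinate into a proton gradient. Complex I (NADH dehydrogenase) and complex II (succinate dehydrogenase) pass electrons to ubiquinone, complex III (cytochrome bc1) hands them to cytochrome c, and complex IV (cytochrome c oxidase) delivers them to oxygen. Complex V (ATP synthase) uses the returning protons to make ATP. A small number of subunits is encoded by mitochondrial DNA and the others by nuclear genes, so the complexes depend on both genomes. No row of the count table carried a symbol of a mitochondrially encoded subunit, and those were not analysed here. Striatal neurons depend on this pathway for the ATP that drives ion pumps and synaptic transmission.

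Total counts ranged from 18135939 to 21211920 per rat, and 3 counts, taken as the smallest detectable number, stood for 0.142 to 0.169 CPM (the number of counts of a gene set against the TMM-scaled total of the library). Members took 1.64% to 1.96% of the counts in the saline rats and 1.80% to 2.05% in the METH rats. All 10 striatal projection neuron markers were tested, and Ppp1r1b, which encodes DARPP-32, lay between 6785 and 10288 CPM. Of the 82 members, 78 passed the expression filter. A pair of rats stood apart in these genes and lay at opposite ends of the comparison. The median over the 78 members of the deviation from the mean of the 8 rats, in log2 CPM, was 0.07, -0.01, -0.24 and -0.07 in saline rats 1 to 4 and 0.04, -0.04, 0.20 and 0.03 in METH rats 1 to 4. Saline rat 3 was the lowest of the 8 rats in 60 of the 78 members, METH rat 3 was the highest in 55, and both held for 47 members. Over all genes tested the corresponding medians were between 0.00 and 0.01 in every rat, values that TMM scaling itself holds near 0. Of the 12014 genes tested, METH rat 3 was the highest rat in 2777 and the lowest in 2685. Saline rat 3 was the highest in 2181 and the lowest in 1939, and no other rat was at either end in more than 1521. The pair thus lay at the ends most often over the whole table too. METH rat 3 also had the lowest TMM factor (0.956, against 0.991 to 1.018 in the others), and with libraries scaled by total counts alone the median log2 fold change of the members was 0.08, with 64 of 78 above 0 and a median of -0.04 over all genes tested. Medians and the fold changes of most members named are therefore given with all 8 rats and with both of these rats left out, an alternative added after the values were seen. The pair is the lowest saline and the highest METH rat in these members. Leaving both out thus tends to lower the differences by that choice alone.

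**Figure D1:**
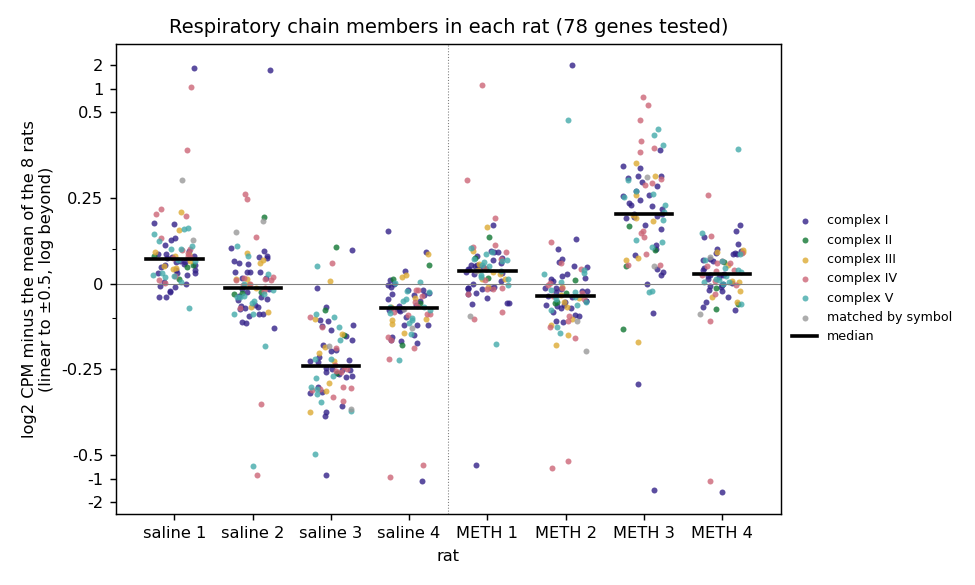
Deviation of each of the 78 members tested from its mean over the 8 rats, in log2 CPM (vertical axis, linear to ±0.5 and logarithmic beyond), for each rat (horizontal axis), with points colored by complex and black lines at the median. The median is lowest in saline rat 3 (-0.24) and highest in METH rat 3 (0.20), and lies between -0.07 and 0.07 in the other 6 rats.

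In METH rats compared with saline rats, the members leaned toward slightly higher levels, and no member passed the test. Of the 78 members tested, 0 were called by the edgeR quasi-likelihood test (FDR below 0.05 with mean log2 CPM above 1), against 62 called genes, or 0.516%, of the 12014 genes tested (0.449% higher and 0.0666% lower). The lowest FDR of any member was 0.295, for Atp5g1. DESeq2, limma-voom and the likelihood ratio test of edgeR also called 0 members. At an unadjusted p under 0.05, 6 members (7.69% of those tested) were higher in METH rats and 0 were lower in the quasi-likelihood test, beside 6.26% and 4.88% of all genes tested, so that the share of members is near the background. Every METH rat lay above every saline rat in 4 members, against 3.75% of all genes, and no member showed the reverse, against 2.65%. The log2 fold change was above 0 in 69 of the 78 members (88.5%), while it was above 0 in 48.6% of all genes tested. On the log2 scale the median fold change of METH over saline (log2FC, with its standard error SE) was 0.12 over the members and -0.01 over all genes tested, and 73 of the 78 members had an absolute log2 fold change below 0.25. The median standard error of a member was 0.09, close to these differences in size. The summed CPM of the members was 19492, 18313, 16149 and 17605 across saline rats 1 to 4, against 18945, 18161, 21457 and 18967 across METH rats 1 to 4. The groups overlapped, with saline rat 1 above METH rats 1, 2 and 4.

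Most of the lean toward higher levels was lost without the pair of rats at the ends, a pair whose choice favors that outcome. Without saline rat 3 and METH rat 3, the median log2FC of the members was 0.01, with 47 above 0 and 31 below, and 0 members had an unadjusted p under 0.05 in the quasi-likelihood test. That fit called 37 genes over the whole table. Leaving out saline rat 3 alone gave a median of 0.06 with 1 member higher at an unadjusted p under 0.05, and leaving out METH rat 3 alone gave 0.07, also with 1. Leaving out saline rat 1, the highest saline rat, gave 0.16 with 13 members higher, and leaving out saline rat 4 gave 0.12 with 2. Between METH rat 3 and saline rat 3 themselves, the median difference over the members was 0.43 log2 units, from -0.52 for Ndufa10l1 to 0.95 for Atp5i. Over all genes tested the median was 0.00, which the scaling holds near 0, and single genes ranged from -5.84 to 5.57.

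**Figure D2:**
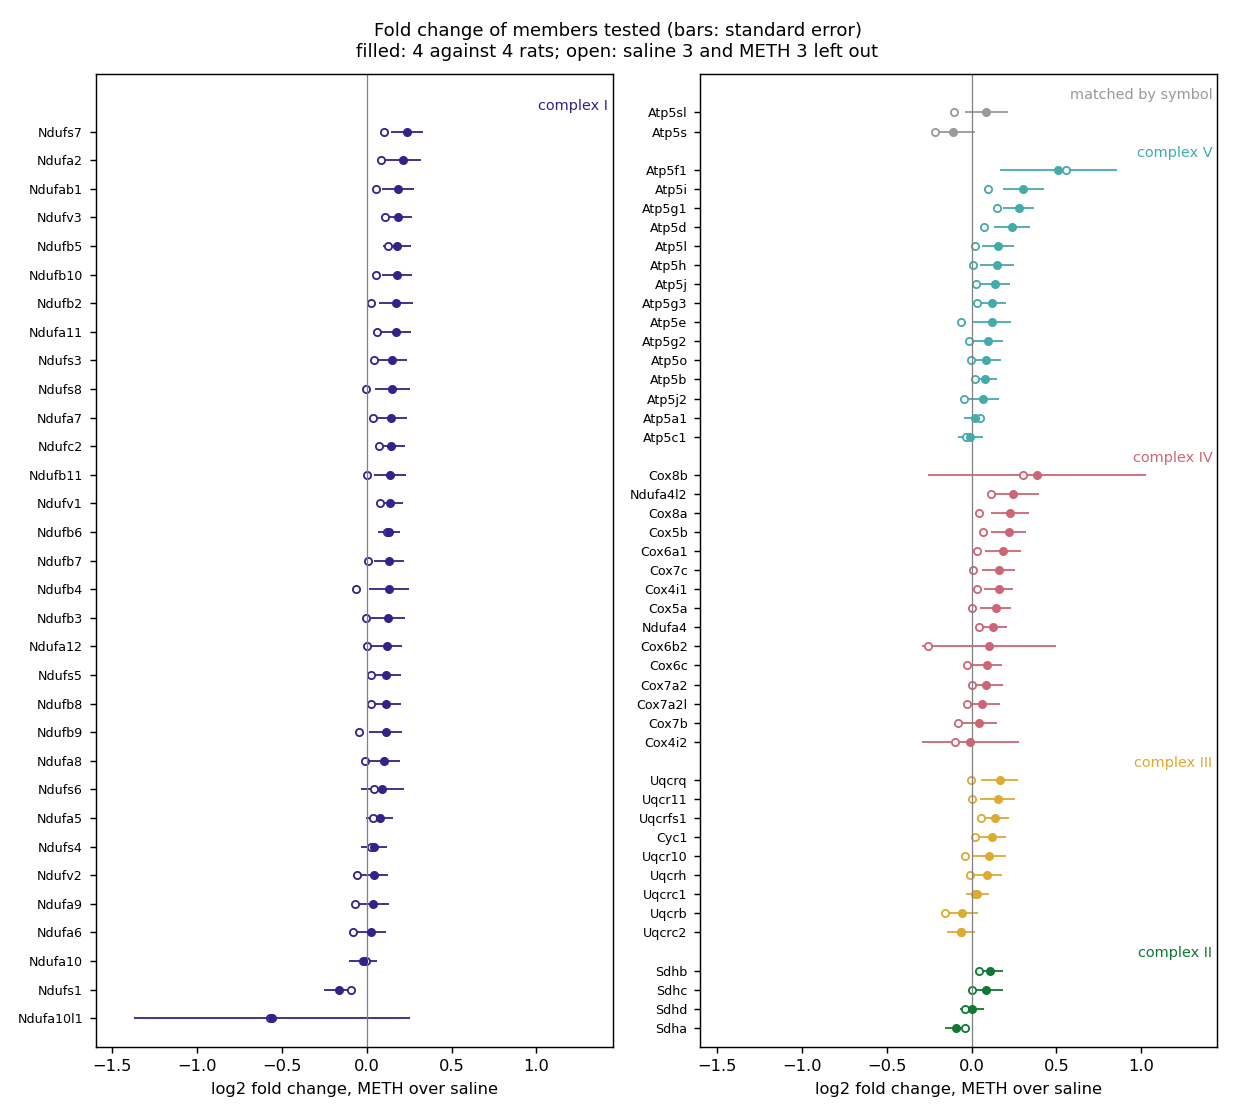
Log2 fold change of METH over saline (horizontal axis) for 77 of the 78 members tested (vertical axis, sorted within complex), with filled points and standard error bars for 4 against 4 rats and open points for the fit without saline rat 3 and METH rat 3. Most filled points lie just right of 0 (median 0.12), and the open points lie around 0 (median 0.01).

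Promoters of these genes are known for sites of factors that tie nuclear to mitochondrial gene expression, among them nuclear respiratory factor 1 (NRF1), the ETS factor GABP and YY1, and for CREB sites (CRE). RefSeq promoter windows of assembly GRCr8, from 250 bases before to 50 bases after the transcript start, were at hand for 68 of the 79 subunits. The letters GCGCANGCG (NRF1, either strand) were found in 18 of them (26.5%), against 6.26% of all 27457 promoter windows and 12.6% of the 9655 windows of genes tested here. AAGATGGCG (YY1, either strand) was found in 10 (14.7%), against 1.93% and 3.56%. CCGGAAGT (GABP, either strand) was found in 7 (10.3%), against 4.01% and 7.81%, and the palindrome TGACGTCA (CRE) in 4 (5.88%), against 1.91% and 3.2%. No matches to different motifs overlapped each other in these subunits. A match describes these letters and is not a site in use. Shown here, with 30 bases each read along the gene's strand and the matched letters in capitals, are windows of members whose values follow, chosen to set members that were highest in METH rat 3 (Atp5i, Cox8a, Cox5b and Ndufs7) beside Sdha, which was lowest in that rat, and Atp5c1, which differed little.
Atp5i (NRF1 letters, chr14:1464774-1464803, plus strand): ttgcgctacgGCGCATGCGCtttcctggct
Cox8a (CRE letters, chr1:213833681-213833710, minus strand): gggacttgtccTGACGTCAtttccgaaata
Cox8a (GABP letters, chr1:213833663-213833692, minus strand): atttccgaaatACTTCCGGgctgaggcgtc
Cox5b (GABP letters, chr9:46417812-46417841, plus strand): tctgtctgttcCCGGAAGTgcatctgcttg
Ndufs7 (YY1 letters, chr7:10110475-10110504, minus strand): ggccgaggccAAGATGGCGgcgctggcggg
Sdha (NRF1 letters, chr1:30764454-30764483, plus strand): cgtttgcagaGCGCAGGCGcaccaccactc
Sdha (NRF1 letters, chr1:30764497-30764526, plus strand): ggagcgtgttGCGCAGGCGcagagccttcc
Sdha (NRF1 letters, chr1:30764542-30764571, plus strand): gcggctcggtGCGCAAGCGcagtctatcgc
Atp5c1 (NRF1 letters, chr17:73333667-73333696, plus strand): ccgagctcccGCGCACGCGcagtgagcctc
Cox8a held a further GABP match, not shown, which starts 20 bases before the transcript start. Sdha held 3 NRF1 matches, which start 89, 46 and 1 bases before the transcript start, and was lowest in METH rat 3. Atp5i held 1 run of overlapping matches on both strands, which starts 76 bases before the start, and was highest in that rat. These members were picked by their values in METH rat 3, so their windows cannot show whether letters and levels go together. That was not tested.

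Complex I was represented by 33 tested subunits of 34. The range of log2FC values was -0.56 to 0.24, the median 0.13, and 30 were above 0 and 3 below, or a median of 0.02 with 21 above and 12 below without the pair of rats. With all rats 3 (9.09%) were higher at an unadjusted p under 0.05, beside 6.26% of all genes tested. They were Ndufs7, Ndufb5 and Ndufv3, named here after their values were seen. Ndufs7 encodes a core subunit that carries an iron-sulfur cluster near the ubiquinone site. It was at 207, 199, 178 and 185 CPM in saline rats 1 to 4, against 208, 205, 272 and 222 CPM in METH rats 1 to 4. The groups overlapped, with METH rat 3 far above the other 7 rats, and the log2FC of 0.24 (SE 0.10, FDR = 0.391, edgeR quasi-likelihood test) became 0.10 without the pair of rats at the ends. Ndufs1, the largest core subunit, went the other way with 177, 147, 168 and 174 CPM in saline rats 1 to 4, against 163, 149, 128 and 154 CPM in METH rats 1 to 4. Its lowest rat was METH rat 3, the groups overlapped, and its log2FC was -0.16 (SE 0.09, FDR = 0.501, same test) and -0.10 without the pair.

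Some complex I subunits separated the groups with small differences. Ndufb6, an accessory subunit of the membrane arm, was at 138, 131, 134 and 133 CPM in saline rats 1 to 4, against 144, 143, 152 and 149 CPM in METH rats 1 to 4. Every METH rat was above every saline rat (two-sided p = 0.0286 by an exact permutation test, the lowest that 4 against 4 can give), by a log2FC of 0.13 (SE 0.07, FDR = 0.466, quasi-likelihood test). It moved little with the pair of rats at the ends, being 0.12 without them. Ndufv1, which binds NADH and the flavin, was at 323, 298, 299.7 and 322 CPM in saline rats 1 to 4, against 332, 337, 373 and 326 CPM in METH rats 1 to 4. Its groups also did not overlap, although the highest saline rat and the lowest METH rat were close, and the log2FC was 0.14, or 0.08 when the pair was left out. Ndufb5, a further membrane arm subunit, was at 116, 115, 94.5 and 102 CPM in saline rats 1 to 4, against 117, 122, 120.2 and 124 CPM in METH rats 1 to 4, again without overlap, and its log2FC was 0.18 and then 0.13. Ndufv3 had a log2FC of 0.18 and overlapped between the groups by 1 METH rat (135 CPM) below saline rat 1 (145 CPM). These separations are 3 of 33 complex I subunits, beside 3.75% of all genes tested, and their members were singled out after the values were seen.

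Ndufa10l1 differed from the other complex I rows in how it varied. It was at 7.52, 6.80, 1.01 and 0.898 CPM in saline rats 1 to 4, against 1.22, 8.28, 0.678 and 0.633 CPM in METH rats 1 to 4. Saline rats 1 and 2 and METH rat 2 held 136 to 174 counts, while the other 5 rats held 12 to 25, so the rats fell into separate levels that crossed the groups. Its log2FC of -0.56 carried a SE of 0.81 and ranged from -2.24 to -0.08 as each rat was left out. The row is a close copy of Ndufa10 by name and can share reads with it, so its counts are uncertain. Ndufa10 itself ranged over 0.26 log2 units across the 8 rats. Ndufab1, the mitochondrial acyl carrier protein, is more typical of the accessory subunits. It was at 130.1, 128, 109 and 124 CPM in saline rats 1 to 4, against 125, 132, 162 and 139 CPM in METH rats 1 to 4, again with the same rats at the ends, and its log2FC was 0.18 (SE 0.09), or 0.05 without them.

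Complex II, which also belongs to the citric acid cycle, has no mitochondrially encoded subunit and had the smallest spread of the 5 complexes. The median over its 4 subunits of the deviation in log2 CPM was 0.05, -0.02, -0.11 and -0.02 in saline rats 1 to 4 and 0.06, -0.04, 0.07 and -0.04 in METH rats 1 to 4, with the same rats at the ends. Its median SD within groups was 0.07 log2 units, against 0.13 to 0.17 in the other complexes, 0.14 over all members and 0.18 over all genes tested. Sdha, the flavoprotein that oxidizes succinate, was at 416, 394, 433 and 418 CPM in saline rats 1 to 4, against 407, 405, 367 and 382 CPM in METH rats 1 to 4. Its order was the reverse of most members, with saline rat 3 highest and METH rat 3 lowest, and its log2FC was -0.09 (SE 0.07, FDR = 0.634, quasi-likelihood test) and -0.04 without those rats. Sdhb, the iron-sulfur subunit, had 164 ± 7.87 CPM in saline and 177 ± 11.2 CPM in METH rats (SD, n = 4), a log2FC of 0.11 (SE 0.07). The membrane anchors Sdhc and Sdhd had log2FC values of 0.09 and 0.00 (SEs 0.10 and 0.07), and 0.00 and -0.04 without the pair. The summed CPM of complex II was 886, 861, 840.4 and 851 across saline rats 1 to 4, against 886, 845, 856 and 836 across METH rats 1 to 4, with overlapping groups.

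Complex III was tested in all 9 subunits, of which 7 had a log2FC above 0 and 2 below, with a median of 0.10 and 0 at an unadjusted p under 0.05 in the quasi-likelihood test. The lowest were the core subunit Uqcrc2 (-0.06, SE 0.08) and Uqcrb (-0.06, SE 0.09), which takes part in ubiquinone binding, and without the pair of rats they had -0.06 and -0.16. Uqcrc2 was at 244, 217, 204 and 232 CPM in saline rats 1 to 4, against 234, 211, 194 and 219.8 CPM in METH rats 1 to 4. Its lowest value was in METH rat 3 and its highest in saline rat 1, and the groups overlapped. The subunits that carry the electrons were both slightly above 0. Cyc1, cytochrome c1, was at 280.0, 274, 245 and 246 CPM in saline rats 1 to 4, against 277, 265, 324 and 268 CPM in METH rats 1 to 4, and its log2FC was 0.12 (SE 0.08) and 0.02 without the pair of rats. Uqcrfs1, the Rieske iron-sulfur protein, had 0.14 and 0.06. Without the pair the median of complex III was 0.00, with 4 subunits above 0 and 5 below.

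Complex IV showed the widest difference between the rats at the ends. The median deviation of its 15 tested subunits was 0.10, 0.01, -0.26 and -0.09 in saline rats 1 to 4 and 0.04, -0.04, 0.29 and 0.04 in METH rats 1 to 4. METH rat 3 was therefore above and saline rat 3 below the others by more than in complex II. Of the 15, 14 had a log2FC above 0, with a median of 0.14, and 0 had an unadjusted p under 0.05 in the quasi-likelihood test. Without the pair of rats the median was 0.01, with 10 above 0 and 5 below. Cox4i1, the ubiquitous form of subunit 4, was at 1029, 1012, 855 and 951 CPM in saline rats 1 to 4, against 1001, 993, 1242 and 1059 CPM in METH rats 1 to 4. Cox6a1 was at 1142, 1064, 905 and 916 CPM in saline rats 1 to 4, against 1008, 1068, 1392 and 1112 CPM in METH rats 1 to 4, and Cox8a was at 686, 640.2, 513 and 583 CPM in saline rats 1 to 4, against 644, 631, 867 and 692 CPM in METH rats 1 to 4. In all of these METH rat 3 was the highest and saline rat 3 the lowest. Their log2FC values were 0.16, 0.19 and 0.23 (SEs 0.09, 0.11 and 0.11), and 0.03, 0.03 and 0.04 without the pair. Cox5b, which binds zinc on the matrix side, was at 451, 403, 354 and 372 CPM in saline rats 1 to 4, against 415, 441, 557 and 426 CPM in METH rats 1 to 4, in the same order, with a log2FC of 0.22 (SE 0.10) and 0.07 without the pair. Ndufa4, first described in complex I and since placed in complex IV, had a log2FC of 0.13 (SE 0.08), and Cox7a2 had 0.08 (SE 0.10). Without the pair they had 0.04 and 0.00.

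Several subunits of complex IV have a second form made in other tissues or conditions, and these rows held few counts in the striatum. The muscle form Cox6a2 held 0 to 6 counts per rat (19 in all) and the testis form Cox8c 1 count in all, and both were removed by the filter. Cox8b, a heart and skeletal muscle form, passed with 4 to 27 counts per rat. It was at 1.26, 0.25, 0.580 and 0.236 CPM in saline rats 1 to 4, against 1.32, 0.571, 0.904 and 0.211 CPM in METH rats 1 to 4, and its log2FC of 0.39 (SE 0.64) became -0.04 without METH rat 1. Cox4i2, known as a form induced by low oxygen, was at 3.18, 3.30, 2.42 and 2.46 CPM in saline rats 1 to 4, against 3.43, 1.62, 2.94 and 3.32 CPM in METH rats 1 to 4, with a log2FC of -0.01 (SE 0.29). Cox6b2, a testis form, was at 1.98, 1.80, 1.35 and 0.898 CPM in saline rats 1 to 4, against 1.57, 0.952, 2.60 and 1.37 CPM in METH rats 1 to 4, with a log2FC of 0.10 (SE 0.39) and -0.26 without the pair of rats. None of these low rows separated the groups. Ndufa4l2, likewise known as induced by low oxygen, was at 11.6, 9.10, 10.9 and 11.5 CPM in saline rats 1 to 4, against 10.8, 12.7, 16.2 and 11.4 CPM in METH rats 1 to 4. Its log2FC was 0.24 (SE 0.16, FDR = 0.562, quasi-likelihood test) and 0.11 without the pair of rats. Levels are not compared between these genes, since the counts are not scaled by transcript length.

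**Figure D3:**
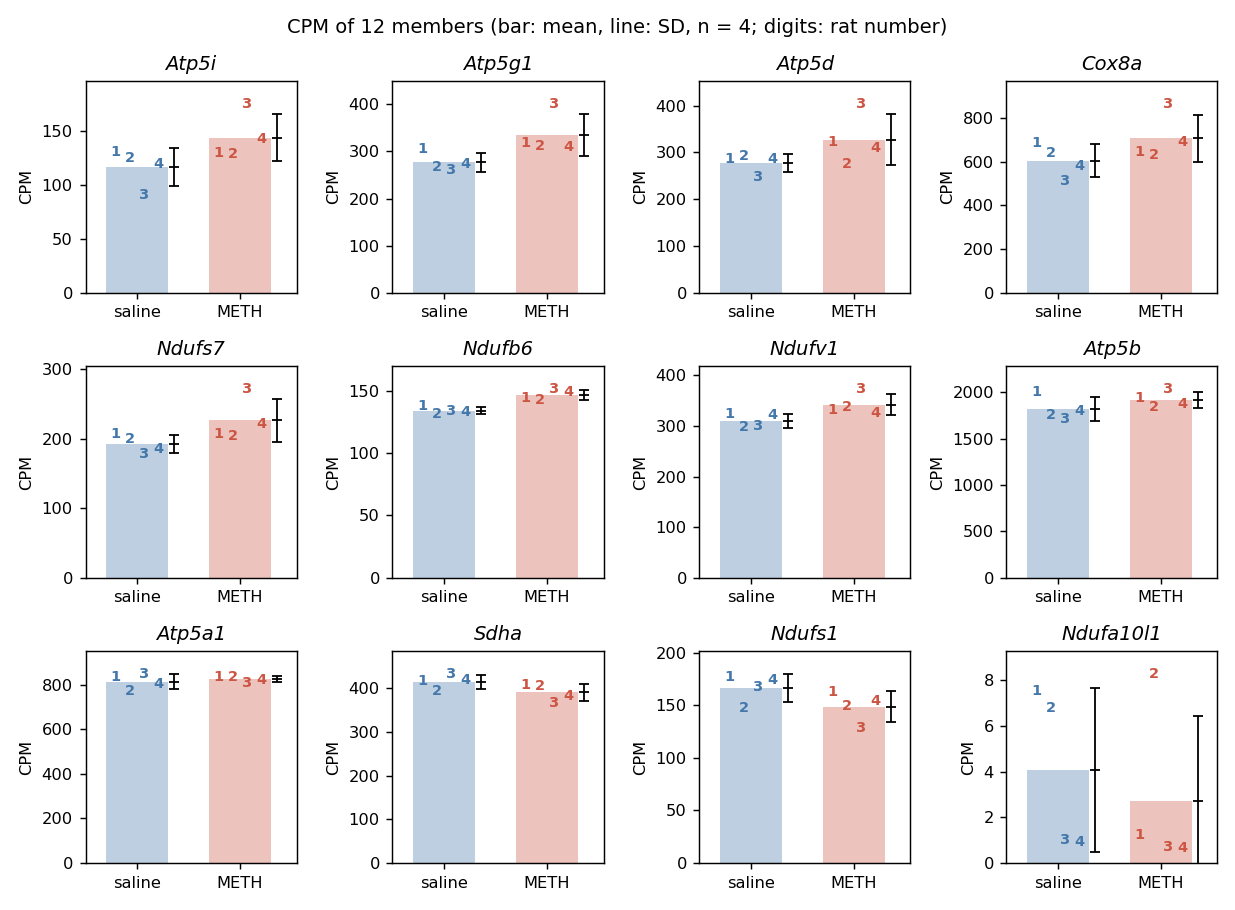
CPM (vertical axes, from 0) of 12 members in the saline and METH rats, with bars at the mean, lines for the SD (n = 4) and digits giving the rat number. METH rat 3 is the highest rat for Atp5i (175 CPM) and the lowest for Sdha (367 CPM), and Ndufa10l1 splits the rats across both groups.

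Complex V held 3 of the 6 members with an unadjusted p under 0.05. These are 20% of its subunits, beside 6.26% of all genes tested that were higher. Of its 15 subunits, 14 (93.3%) had a log2FC above 0, beside 48.6% of all genes tested. The median of complex V was 0.12, or 0.02 with 10 of 15 above 0 without the pair of rats. Atp5g1, one of 3 genes for the proton-carrying c subunit, was at 304, 268, 260.5 and 274 CPM in saline rats 1 to 4, against 318, 312, 402 and 310.3 CPM in METH rats 1 to 4. All METH rats were above all saline rats, with METH rat 3 far above the other METH rats. Its log2FC was 0.28 (SE 0.09, unadjusted p = 0.0102, FDR = 0.295, quasi-likelihood test), the lowest p among the members, and 0.15 without the pair. The exact permutation test gave a two-sided p of 0.0286 for it. Any full separation of 4 against 4 gives that value, so it only restates the separation. In that direction 3.75% of all genes tested separated. Atp5g2 was at 298, 259, 229 and 247 CPM in saline rats 1 to 4, against 269.7, 271, 308 and 255 CPM in METH rats 1 to 4, and Atp5g3 was at 348, 325, 296 and 307 CPM in saline rats 1 to 4, against 348, 315, 389 and 337 CPM in METH rats 1 to 4. Both overlapped between the groups, with log2FC values of 0.10 (SE 0.09) and 0.12 (SE 0.08), and -0.01 and 0.03 without the pair. The 3 genes encode the same mature protein behind different import sequences, so reads can be shared among them and with their pseudogenes.

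Atp5i, the small e subunit that helps ATP synthase form dimers, was at 129.9, 124, 90.7 and 119 CPM in saline rats 1 to 4, against 129, 128, 175 and 142 CPM in METH rats 1 to 4. It had the widest gap of any member between METH rat 3 and saline rat 3 (0.95 log2 units). With all rats its log2FC was 0.31 (SE 0.12, FDR = 0.386, quasi-likelihood test), and without the pair it was 0.09. Atp5d, the delta subunit of the central stalk, was at 285, 291, 247 and 285 CPM in saline rats 1 to 4, against 322, 274, 404 and 309 CPM in METH rats 1 to 4, with a log2FC of 0.24 (SE 0.11) and 0.07 without the pair. The beta and alpha subunits varied less. Atp5b, the beta subunit, was at 2004, 1755, 1709 and 1804 CPM in saline rats 1 to 4, against 1934, 1841, 2038 and 1875 CPM in METH rats 1 to 4. Atp5a1, the alpha subunit, was at 834, 771, 848 and 805 CPM in saline rats 1 to 4, against 834, 837, 806 and 822 CPM in METH rats 1 to 4, all within 0.14 log2 units. Their log2FC values were 0.08 (SE 0.07) and 0.02 (SE 0.06), and 0.02 and 0.05 without the pair. Atp5c1, the gamma subunit that turns inside the catalytic ring, was at 267, 230.2, 224 and 240.1 CPM in saline rats 1 to 4, against 250.2, 229, 235 and 242 CPM in METH rats 1 to 4 and had a log2FC of -0.01 (SE 0.07). The 5 subunits of the F1 part, Atp5d among them, had a median of 0.08 and the other 10 subunits 0.14, and both were at 0.02 without the pair.

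Not every subunit followed the rats at the ends. Between METH rat 3 and saline rat 3 the difference was below 0 for 6 members, namely Ndufa10l1 (-0.52), Ndufs1 (-0.39), Sdha (-0.24), Ndufa10 (-0.08), Atp5a1 (-0.07) and Uqcrc2 (-0.07). In the other 72 members METH rat 3 was above saline rat 3. Across complexes the median of this difference was 0.40 in complex I, 0.22 in complex II, 0.40 in complex III, 0.55 in complex IV and 0.43 in complex V. These are single rats, so the values describe those libraries.

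A few members had very low counts. Ndufa1, an accessory subunit of complex I, held 7 counts over all rats, with 0 in 5 of them, and was not tested. Atp5f1, the b subunit of the peripheral stalk of ATP synthase, held 16 to 40 counts per rat and was at 1.37, 0.800, 1.26 and 1.13 CPM in saline rats 1 to 4, against 1.17, 1.90, 1.64 and 1.79 CPM in METH rats 1 to 4. Its log2FC of 0.51 (SE 0.34, FDR = 0.583, quasi-likelihood test) was the highest of the members tested, with groups overlapping and a mean log2 CPM below the level required for a call. Both proteins are parts of complexes present in every cell with mitochondria, so these counts are not read as expression levels. The RefSeq annotation of assembly GRCr8 names 3 pseudogenes after Atp5f1 (Atp5pb in that table) and 1 after Ndufa1, and at least 1 pseudogene after 38 of the 82 members. How multi-mapping reads were treated is not stated, and the part of such reads in these counts was not tested. Cox6c-ps1 had 0 counts in all rats. Of the other rows matched by symbol only, Atp5s had a log2FC of -0.11 (SE 0.13) and Atp5sl 0.09 (SE 0.13), and without the pair of rats they had -0.21 and -0.11. Atp5sl was at -0.01 without saline rat 3 alone and without METH rat 3 alone. Of the 82 members, 17 overlap another protein-coding gene in GRCr8, among them Atp5d, Cox8a, Ndufb5 and Ndufa4l2, and since the library kit does not mark strand their counts can include reads of the neighbor.

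Among other genes of the pathway, assembly factors, which help build the complexes without staying in them, had medians close to 0, while genes of mitochondrial content lay mostly above 0. Of the 14 tested assembly factors of complex I, 4 had a log2FC above 0 and 10 below, with a median of -0.02, and of 29 tested assembly factors of complexes II to V, 14 were above and 15 below, with a median of -0.02. Atp5sl, which GRCr8 names Dmac2, is also listed among complex I assembly factors and was left out of these 14. None of these assembly factors had an unadjusted p under 0.05 in the quasi-likelihood test, which called 0 of them. Among 16 tested electron carriers and ubiquinone genes, 12 had a log2FC above 0 and 4 below, with a median of 0.06. Of these, Coq10b was higher (log2FC 0.31, SE 0.12, FDR = 0.338) and Gpd2 lower (-0.53, SE 0.24, FDR = 0.430) at an unadjusted p under 0.05, and neither was called. Each is 6.25% of the list, beside 6.26% higher and 4.88% lower among all genes tested. Of 14 genes of mitochondrial content such as citrate synthase and the VDAC channels, 12 were above 0 with a median of 0.08, and the median was 0.06 without the pair of rats. Hspe1, the mitochondrial chaperonin partner, was the member of that list with an unadjusted p under 0.05, with 92.1, 84.6, 79.9 and 88.8 CPM in saline rats 1 to 4, against 94.7, 94.96, 108 and 97.9 CPM in METH rats 1 to 4. Its groups did not overlap, and the log2FC was 0.19 (SE 0.08, FDR = 0.379, quasi-likelihood test). Slc25a3 and Phb also separated the groups, so that 3 of the 14 did, beside 3.75% of all genes tested.

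Among 15 tested transcriptional regulators of mitochondrial genes, 0 were called, 1 was higher and 2 were lower at an unadjusted p under 0.05 in the quasi-likelihood test. These are 6.67% and 13.3% of the list, beside 6.26% and 4.88% of all genes tested. Ppargc1a, the coactivator PGC-1 alpha, was at 9.66, 11.7, 14.8 and 11.7 CPM in saline rats 1 to 4, against 9.89, 10.5, 6.95 and 9.86 CPM in METH rats 1 to 4. It was highest in saline rat 3 and lowest in METH rat 3, the opposite of most subunits, and its log2FC was -0.37 (SE 0.17, FDR = 0.454, quasi-likelihood test). Esrra, a nuclear receptor that works with PGC-1 alpha, was at 157, 167, 146 and 152 CPM in saline rats 1 to 4, against 169.6, 176, 245 and 173 CPM in METH rats 1 to 4. It separated the groups, with METH rat 3 far above all others, at a log2FC of 0.30 (SE 0.11, FDR = 0.348) that was 0.16 without METH rat 3. Gabpa, the DNA-binding part of GABP, was at 31.2, 30.05, 33.2 and 29.5 CPM in saline rats 1 to 4, against 29.8, 24.4, 21.9 and 27.9 CPM in METH rats 1 to 4, with a log2FC of -0.25 (SE 0.11, FDR = 0.422). Gabpb1, its partner, had -0.39 (SE 0.15, FDR = 0.346). In Gabpa the lowest rat was METH rat 3. Nrf1 had a log2FC of 0.00 (SE 0.13) and Tfam, which packages and transcribes mitochondrial DNA, 0.10 (SE 0.09).

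**Figure D4:**
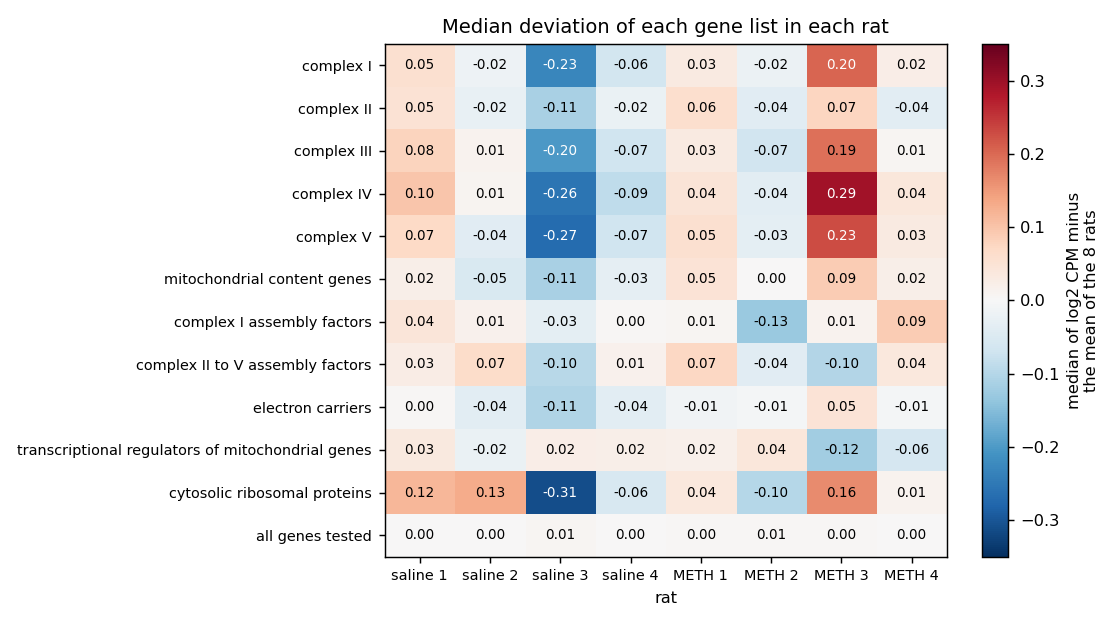
Median deviation from the mean of the 8 rats, in log2 CPM (color and printed number), for each gene list (rows) in each rat (columns). Every complex, mitochondrial content genes, electron carriers and cytosolic ribosomal proteins are lowest in saline rat 3 and highest in METH rat 3. Assembly factors, transcriptional regulators and all genes tested do not show that order.

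The order of the rats at the ends was also seen in a list with no respiratory role. The 79 tested cytosolic ribosomal protein genes had median deviations of 0.12, 0.13, -0.31 and -0.06 in saline rats 1 to 4 and 0.04, -0.10, 0.16 and 0.01 in METH rats 1 to 4. Saline rat 3 was again lowest and METH rat 3 highest. Of these genes, 68 (86.1%) had a log2FC above 0, beside 48.6% of all genes tested, with a median of 0.06. At an unadjusted p under 0.05 in the quasi-likelihood test, 1 (1.27%) was higher, beside 6.26% of all genes tested. Without both rats the median of the ribosomal protein genes was -0.08, while that of the respiratory chain members was 0.01. The summed CPM of ribosomal protein genes was 27799, 28048, 20752 and 24541 across saline rats 1 to 4, against 26030.4, 23969, 28409.6 and 25999 across METH rats 1 to 4. What sets these rats apart was not tested.

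Cell type markers moved with the groups and the rats to differing degrees. At an unadjusted p under 0.05 in the quasi-likelihood test, 6.26% of all genes tested were higher and 4.88% lower. The summed CPM of the 10 striatal projection neuron markers was 14738 to 15674 in saline and 15593 to 19611 in METH rats, with the highest value in METH rat 3, and 3 of the 10 were higher at an unadjusted p under 0.05. The 9 neuron markers summed to 3069 to 3614 CPM in saline and 2781 to 3148 CPM in METH rats, lowest in METH rat 3, with 2 lower at that threshold (Snap25 and Map2). Of these 9, 4 had a log2FC above 0 and 5 below, with a median of -0.0008. Their median deviation was lowest in saline rat 2 (-0.12) and was -0.02 in METH rat 3. Oligodendrocyte markers (9) summed to 13590.2 to 19469 and 12749 to 18919 CPM, with 2 lower. Astrocyte markers (8) summed to 4475 to 5547 and 4759 to 5782 CPM, with 0 past the threshold in either direction in the quasi-likelihood test. Microglia markers (9) summed to 381 to 442 and 347 to 419 CPM, with 2 lower, of which Cx3cr1 was called (log2FC -0.73, FDR = 0.0408). That call was lost without the pair of rats (FDR = 0.0954) and when any rat but saline rat 1 or METH rat 2 was left out (FDR up to 0.144). Endothelial markers (7) summed to 500.0 to 712 and 502 to 529.7 CPM, with 3 lower. Choroid plexus markers (7, of which 3 passed the filter) summed to 5.30 to 6.67 and 6.90 to 10.4 CPM, with 1 higher, and Ttr held between 0 and 2.03 CPM. No marker was at 0 in all rats. The part of cell composition in the levels of the respiratory chain members was not tested.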

How the data were processed

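Striatal mRNA from 8 rats, 4 METH and 4 saline, was analysed. Per the submitters' processing notes and methods, reads were trimmed with cutadapt 1.18, aligned to rn6 with STAR 2.7.0e and counted per gene with featureCounts of Subread 1.6.4. The authors deposited raw counts per gene symbol, 1 column per rat, without normalization. Which annotation and strand setting were used, and how multi-mapping reads were treated, is not given in the sources used here. Each column was assigned by the group and rat number in its name, and no pair of rats in a group agreed within sampling noise (chi-square over degrees of freedom 10.1 to 27.6). The p-values weigh the difference between the groups against the spread between these rats.

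From the counts, R 4.3.3 with edgeR 4.0.16, limma 3.58.1 and DESeq2 1.42.0 gave all values. Genes were filtered with filterByExpr (minimum count 10), scaled by TMM and tested over all 12014 genes by the quasi-likelihood F-test with Benjamini-Hochberg adjustment (FDR). CPM on the log2 scale had a prior count of 2 added. SE is the size of the log2 fold change divided by the square root of F. An exact permutation test over the 70 labelings of 8 rats was run for each gene. By rule, the named genes are the 6 members of highest and 6 of lowest log2 fold change, complex II, the paralogs of complexes IV and V and 5 regulators, and others were named after their values were seen. Members, lists and tests were chosen with earlier results of these data known. Promoter windows were matched by symbol or synonym for all 82 members and found for 69. Coordinates are of GRCr8, not of rn6. Values of 1 member are not reported here by name, and counts and medians over the members include it.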

Additional observations from a re-analysis of the deposited data

Results flagged for a closer look

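A rat was taken to stand apart in its group when its distance to the closest other rat, divided by the distance from lowest to highest, passed Dixon's 95% critical value for 4 samples. This happened in 5 of 84 comparisons over named genes and lists, or 5.95%, about the 5% that chance gives. Among the members, METH rat 3 stood apart for Atp5g1 (ratio 0.909) and saline rat 3 for Atp5d (0.870). Among the regulators, METH rat 3 stood apart for Ppargc1a (0.852, below the other METH rats) and Esrra (0.896, above them), and saline rat 3 for Nrf1 (0.872, below the other saline rats). These were the rats that lay at the ends for most members.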

How the results depend on the processing

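Under every setting run, 0 members were called, and the median log2 fold change of the members was above 0, from 0.01 without both rats 3 to 0.16 without saline rat 1 (0.06 to 0.16 with 1 rat left out, the lowest without saline rat 3). Total count scaling, which lowered the median of all genes tested from -0.01 to -0.04, gave a member median of 0.08 with 64 above 0. Members higher at an unadjusted p under 0.05 numbered 6, and 3 with total counts, 1 with the replicate block, 0 without both rats 3 and 1 to 13 with 1 rat left out. Members lower numbered 0 to 1. Over all genes tested 62 were called, 170 by the likelihood ratio test, 191 by DESeq2, 100 at an FDR below 0.10, 37 with the replicate block, 37 without both rats 3 and 37 to 70 with 1 rat left out (37 without saline rat 2). With the replicate block the lowest FDR of a member was 0.572. The labels do not say whether the rat numbers pair animals. Rats sharing a number had correlations of -0.20 to 0.04 after subtracting group means, which cannot show that no pairing exists. The block also ended the call of Cx3cr1 (FDR = 0.114) and changed no other call among the genes named with values. Among these genes, with total counts the log2 fold change of Sdhd was -0.032, that of Nrf1 -0.033 and that of Atp5a1 -0.017. Without both rats 3, an alternative chosen after seeing the data, it was -0.036 for Sdhd, -0.014 for Atp5g2, -0.049 for Nrf1, -0.11 for Atp5sl and -0.26 for Cox6b2. With 1 rat left out 16 of 78 members changed sign in at least 1 setting. Among the genes named with values these were Cox8b (-0.039 to 1.07), Uqcrb (-0.12 to 0.0065), Sdhd (-0.021 to 0.033), Cox4i2 (-0.12 to 0.19), Atp5sl (-0.011 to 0.17), Ndufa10 (-0.087 to 0.020), Cox6b2 (-0.21 to 0.29), Atp5a1 (-0.0069 to 0.038) and Atp5c1 (-0.041 to 0.048), and the regulator Nrf1 (-0.046 to 0.040). The cause of these changes was not tested beyond the rats and scalings named. Depth limits Cox8b, Atp5f1, Cox4i2 and Cox6b2, with at most 70 counts in any rat.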
